A study of Zea mays with 10 samples.

Results

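The 6 genes described here are 4 genes of cytosolic glyceraldehyde-3-phosphate dehydrogenase, gpc1 (GRMZM2G046804), gpc2 (GRMZM2G180625), gpc3 (GRMZM2G071630) and gpc4 (GRMZM2G176307), and 2 genes of alcohol dehydrogenase, adh1 (GRMZM2G442658) and adh2 (GRMZM2G098346). They were picked by gene ID from 28580 gene IDs, for their place in the low-oxygen glycolysis of the endosperm and with their levels in these libraries already known. Their levels and the difference between genotypes are therefore given as a description, and nothing is supported with them. RNA with poly(A) tails was sequenced from dissected endosperm of the maize inbred line B73 (WT, 3 libraries) and of B73o2, which carries a mutation of the transcription factor gene opaque-2 in the B73 background (o2, 3 libraries). Both groups came from greenhouse plants that were self-pollinated and sampled 15 days after pollination, with no treatment. The labels name neither the o2 allele nor the plants or ears behind a library, so the spread between libraries may be technical.

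Glyceraldehyde-3-phosphate dehydrogenase oxidises a triose phosphate in the middle of glycolysis and reduces NAD+ to NADH. When oxygen is short, pyruvate decarboxylase and alcohol dehydrogenase turn pyruvate into ethanol and return NADH to NAD+, so that glycolysis can go on. The inner starchy endosperm of cereals is a low-oxygen tissue. In maize seedlings gpc3 and gpc4 are known for their induction by oxygen shortage, while gpc1 and gpc2 are not raised by it. ADH1 is the main alcohol dehydrogenase of the maize kernel and pollen, and ADH2 is best known from oxygen-starved roots.

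The RNA libraries held 28614800 to 48169603 uniquely mapped reads, and multiply mapped reads made up 26.9% to 38.6% of the WT and 20.8% to 21.7% of the o2 reads. Expression was deposited as RPKM, reads relative to the length of the gene and the size of the library. Column medians lay between 1.56 and 1.60 RPKM. The columns summed to 1318538, 696998 and 2588142 RPKM in WT and to 207907, 207265 and 264781 RPKM in o2. A level given here is therefore not a share of the sum of its library, and the sources used here do not say how library size was set. The targeted gene o2 was at 86.1 to 163 RPKM in WT and at 0.173 to 0.254 RPKM in the mutant. All 11 matched starchy endosperm markers passed the filter on low values. They summed to 20268, 10328 and 33638 RPKM in the WT libraries and to 9416, 11715 and 22465 RPKM in o2. Of these, bt2, sh2, ae1, bt1 and the pbf1 ID GRMZM2G146283 were higher in every o2 library. The level of bt2 was 381 to 497 RPKM in WT and 975 to 997 RPKM in o2. For sh2 it was 334 to 470 RPKM in WT and 603 to 770 RPKM in o2. The o2 gene was lower in every o2 library, and the remaining starchy endosperm IDs overlapped between genotypes. The 8 matched basal transfer layer IDs summed to 187, 78.1 and 4.28 RPKM in the WT libraries, in the order of their replicate numbers, and to 54.3, 173 and 24.6 RPKM in o2. The 2 matched embryo IDs, ole1 and glb1, summed to 32.0, 104 and 57.5 RPKM in WT and to 19.5, 16.2 and 3.21 RPKM in o2. The 6 matched aleurone IDs summed to 26.6 to 41.3 RPKM in WT and to 33.7 to 35.1 RPKM in o2. Among them, nkd2 was lower in every o2 library, at 5.31 to 9.49 RPKM in WT and 2.20 to 3.33 RPKM in o2. So was vp1, at 0.467 to 0.973 RPKM in WT and 0.0171 to 0.257 RPKM in o2. The remaining aleurone IDs overlapped between genotypes. The 2 matched IDs of the embryo-surrounding region summed to 0.677, 13.8 and 0.571 RPKM in WT and to 1.87, 9.74 and 1.32 RPKM in o2, and no marker of green or maternal tissue was matched. No matched marker was at 0 in any library.

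The anaerobically induced pair gpc3 and gpc4 carried most of the cytosolic GAPDH message in both genotypes, and their mean levels were about 3 times as high in o2. In WT, replicates 1 to 3 held gpc3 at 317, 849 and 268 RPKM, and in o2 they held it at 1651, 1647 and 853 RPKM. The groups did not overlap, but the highest WT library, replicate 2, and the lowest o2 library, replicate 3, were only 3.72 RPKM apart. The mean of gpc3 was 478 ± 322 RPKM in WT and 1384 ± 460 RPKM in o2 (SD, n = 3 each), a log2 difference of 1.67 ± 0.53 (SE). Log2 differences are o2 minus WT on the log2(RPKM + 0.1) scale throughout. By its mean level gpc3 ranked 75th of all gene IDs in WT and 18th in o2.

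The level of gpc4 was 233, 598 and 198 RPKM in WT and 1302, 1300 and 541 RPKM in o2. Here the groups overlapped, with o2 replicate 3 under WT replicate 2. The means were 343 ± 221 RPKM in WT and 1048 ± 439 RPKM in o2 (SD, n = 3 each), with a log2 difference of 1.68 ± 0.56 (SE). The rank of gpc4 went from 96th in WT to 21st in o2. The proteins of gpc3 and gpc4 are near-identical in maize, and the sources used here do not say how reads that fit both genes were counted, so the split between them is uncertain.

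The other pair, gpc1 and gpc2, had lower mean levels in o2. The level of gpc1 was 28.8, 43.1 and 28.9 RPKM in WT and 23.7, 23.6 and 15.8 RPKM in o2. All 3 o2 libraries lay below the WT libraries. The means were 33.6 ± 8.21 and 21.1 ± 4.54 RPKM (SD, n = 3 each), a log2 difference of -0.67 ± 0.25 (SE). The level of gpc2 was 60.2, 117 and 56.9 RPKM in WT and 56.6, 58.1 and 35.5 RPKM in o2. Its groups overlapped, and without WT replicate 2 the log2 difference of -0.59 ± 0.35 (SE, n = 3 each) was -0.26 ± 0.25 (SE, n = 2 against 3). In bulk endosperm a lower level may come from fewer cells of a type or from less RNA per cell, which cannot be told apart.

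**Figure D1:**
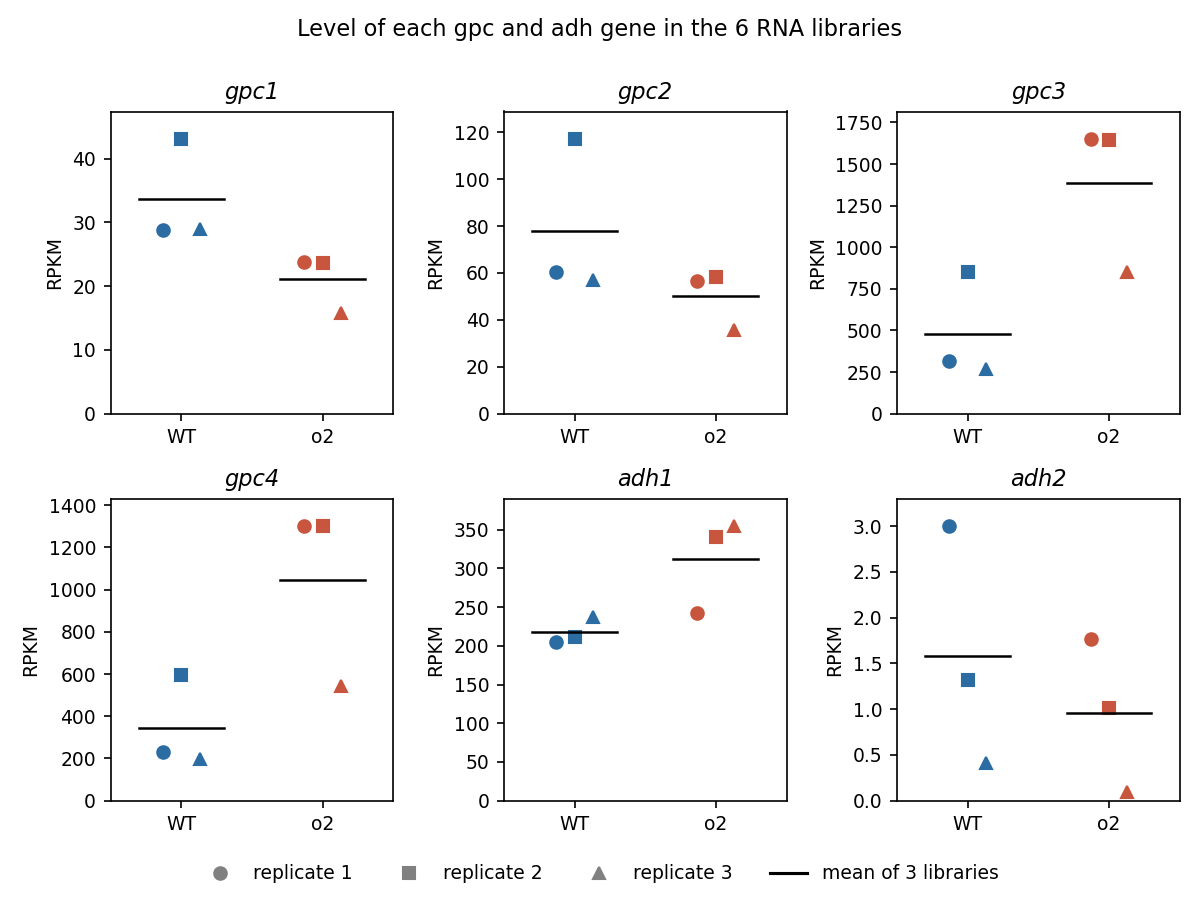
Level in RPKM of each gpc and adh gene in the 3 WT and 3 o2 RNA libraries, 1 panel per gene with its own axis from 0. Symbols mark replicates and black lines the mean of 3 libraries. All 4 gpc genes were highest among WT libraries in replicate 2 and lowest among o2 libraries in replicate 3.

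The 4 gpc genes shared the libraries in which they stood high or low within a genotype. WT replicate 2 held the highest WT level of all 4, and o2 replicate 3 the lowest o2 level of all 4. The highest level was 3.17 times the lowest among WT libraries for gpc3, 3.01 times for gpc4 and 2.06 times for gpc2. On the log2 scale, the residual SD of gpc3 was 0.745 and that of gpc4 was 0.798, where the median of all tested genes was 0.235. WT replicate 2 also held the highest sum of the embryo and embryo-surrounding markers in WT, and o2 replicate 3 the lowest embryo sum in o2. The starchy endosperm sum ran the other way, lowest among WT libraries in replicate 2 and highest among o2 libraries in replicate 3. Its highest members in every library were the gamma zein genes gz16 and gz27. Among WT libraries bt1 was instead lowest in replicate 1 and the pbf1 ID GRMZM2G146283 in replicate 3. Among o2 libraries bt2 was at 997, 995 and 975 RPKM, lowest in replicate 3. The other IDs ran as the sum did. The part of these cell types in the gpc levels was not tested.

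Shares within the family do not depend on how a library was scaled. Together gpc3 and gpc4 made up 86.1%, 90.0% and 84.5% of the summed gpc RPKM in WT replicates 1 to 3. In the o2 replicates they made up 97.4%, 97.3% and 96.5%. The groups did not overlap, and the mean share was 10.2 percentage points higher in o2. The summed gpc level was 639, 1607 and 552 RPKM in WT and 3033, 3029 and 1445 RPKM in o2, with o2 replicate 3 under WT replicate 2.

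The share of gpc1 in the family was 4.14% ± 1.32 over the WT and 0.886% ± 0.181 over the o2 libraries (SD, n = 3 each). The share of gpc2 was 9.0% ± 1.55 over the WT and 2.08% ± 0.326 over the o2 libraries (SD, n = 3 each). Within each pair the proportions overlapped between genotypes. The ratio of gpc3 to gpc4 was 1.38 ± 0.038 over the WT and 1.37 ± 0.178 over the o2 libraries (SD, n = 3 each). The ratio of gpc2 to gpc1 was 2.26 ± 0.403 over the WT and 2.36 ± 0.109 over the o2 libraries (SD, n = 3 each). Across the pairs, the ratio of gpc3 to gpc2 was 5.26, 7.25 and 4.71 in WT and 29.2, 28.4 and 24.0 in o2, with every WT library far below the o2 libraries.

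A further comparison, chosen after the values were seen, set gpc3 and gpc4 against the abundant enzymes on either side of GAPDH in glycolysis. The gene ald1 (GRMZM2G057823) codes for aldolase, which yields the triose phosphates that GAPDH uses, and eno1 (GRMZM2G064302) for enolase, further down the pathway. The level of ald1 was 258, 626 and 213 RPKM in WT and 600, 583 and 344 RPKM in o2. The level of eno1 was 227, 1006 and 200 RPKM in WT and 631, 674 and 341 RPKM in o2. Both had their highest WT level in replicate 2 and their lowest o2 level in replicate 3, as gpc3 did.

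The ratio of gpc3 to ald1 was 1.23, 1.36 and 1.26 in WT and 2.75, 2.83 and 2.48 in o2. Within a genotype these ratios lay close together, and the WT and o2 ranges were well apart. The ratio of gpc4 to ald1 was 0.930 ± 0.027 over the WT and 1.99 ± 0.362 over the o2 libraries (SD, n = 3 each), again without overlap. The ratio of gpc3 to eno1 was 1.40, 0.844 and 1.34 in WT and 2.62, 2.44 and 2.50 in o2. For gpc1 the ratio to ald1 was lower in every o2 library, at 0.042 ± 0.0035 against 0.105 ± 0.034 in WT (SD, n = 3 each). A ratio shows unequal levels of a pair of genes and not which of them differed.

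**Figure D2:**
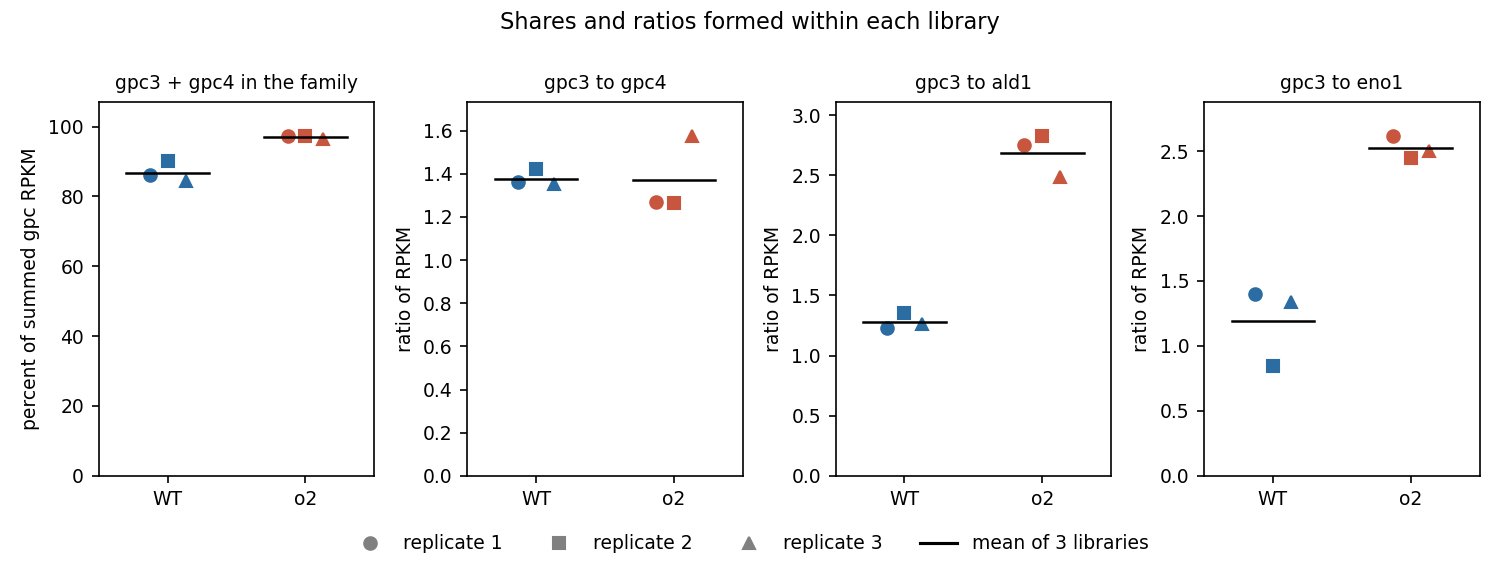
Share of gpc3 and gpc4 in the summed gpc RPKM (percent, left panel) and the ratios of RPKM of gpc3 to gpc4, ald1 and eno1, each formed within a library. Symbols mark the replicates of WT and o2 and black lines the mean of 3 libraries. The gpc3 to gpc4 ratio overlapped between genotypes, and the other 3 quantities did not.

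Among the alcohol dehydrogenase genes nearly all message came from adh1. Its level was 205, 212 and 238 RPKM in WT and 242, 341 and 355 RPKM in o2. The groups did not overlap, although WT replicate 3 and o2 replicate 1 were only 4.76 RPKM apart. The means were 218 ± 17.1 and 313 ± 61.3 RPKM (SD, n = 3 each), a log2 difference of 0.50 ± 0.25 (SE). The rank of adh1 was 120th of all gene IDs in WT and 73rd in o2. In contrast to the gpc genes, adh1 was highest in replicate 3 of each genotype, and its residual SD of 0.228 on the log2 scale lay near the median of all tested genes.

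The level of adh2 was 3.0, 1.32 and 0.409 RPKM in WT and 1.77, 1.01 and 0.0932 RPKM in o2. The groups overlapped over most of their range, and replicate 3 was the lowest library of both genotypes. The means were 1.58 ± 1.32 and 0.958 ± 0.84 RPKM (SD, n = 3 each), a log2 difference of -0.83 ± 0.97 (SE). With a pseudocount of 1 it was -0.37, and with 0.01 it was -1.05. Without o2 replicate 3 the log2 difference was 0.14 ± 0.75 (SE, n = 3 against 2). The basal transfer layer sum was also lowest in replicate 3 of both genotypes, at 4.28 RPKM in WT and 24.6 RPKM in o2. Its IDs ran the same way except mrp1, which in WT was highest in replicate 3 (0.311, 0.224 and 0.398 RPKM in replicates 1 to 3). The part of these markers in the adh2 values was not tested. At most 1.44% of the summed adh RPKM of a library came from adh2, in WT replicate 1, and the lowest share was 0.026%, in o2 replicate 3.

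Ordered by mean level, the genes stood as gpc3, gpc4, adh1, gpc2, gpc1 and adh2 in both genotypes. In every library gpc3 was above gpc4, gpc2 above gpc1 and adh1 above adh2. In WT the ranges of gpc3 and gpc4 overlapped, as did those of gpc4 and adh1, while each of the remaining neighbours was separated in all libraries. In o2 the ranges of gpc3 and gpc4 overlapped, and every other neighbour was separated in all libraries. RPKM is scaled by gene length, so levels of different genes can be set side by side on it.

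In the limma fit across all 18687 genes that reached 1 RPKM in 3 libraries or more, none of the 6 genes had a Benjamini-Hochberg adjusted p under 0.05, the threshold for a call. All 6 had passed that filter on low values, and 3.56% of all tested genes were called. The adjusted p was 0.158 for gpc3, 0.168 for gpc4, 0.213 for gpc1, 0.346 for adh1, 0.424 for gpc2 and 0.710 for adh2. At an unadjusted p under 0.05 there were 3 of the 6, gpc1, gpc3 and gpc4, beside 19.2% of all tested genes. The WT and o2 libraries did not overlap for 3 of the 6, gpc1, gpc3 and adh1, beside 26.1% of all tested genes. The sizes of the differences of gpc3 and gpc4 were larger than those of 97.1% of the tested genes. Their residual SDs were also larger than those of 94.7% and 95.3% of the tested genes.

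With all 6 libraries gpc3 was not called on the deposited scale, and of the left-out libraries only WT replicate 2 changed that. That library held its highest WT level. As gpc3 was picked with its levels known, its calls in any setting are given as a description alone. Without that library its log2 difference was 2.18 ± 0.38 (SE, n = 2 against 3; limma adjusted p = 0.0460), and 4.16% of all genes were called in that fit. The values of gpc4 without it were 2.18 ± 0.45 and an adjusted p of 0.0627 in limma. Under quantile normalization, which gives every library the same set of values, gpc3 was called as well (log2 difference 3.70, limma adjusted p = 0.0322), as were 4.17% of all genes. That setting also moved eno1 from 0.56 to 2.09, ald1 from 0.60 to 2.02 and adh1 from 0.50 to 1.30, none of them called. The differences of gpc1 and gpc2 were -0.73 and -0.58 there. With any 1 library left out, the log2 difference of gpc3 ranged from 1.35 to 2.18 and its adjusted p from 0.0460 to 0.402. When RPKM was divided by the summed RPKM of each library, the median gene moved to a log2 difference of 2.55. The 10 highest genes of a library took 52.4% to 74.2% of that sum in WT and 13.4% to 22.7% in o2. On that scale the differences of gpc1, gpc2 and adh2 turned positive, to 1.89, 1.97 and 1.33, but stayed below the median gene, and gpc3 and gpc4 lay 1.69 and 1.70 above it. All 6 were called there, as were 97.8% of all tested genes.

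**Figure D3:**
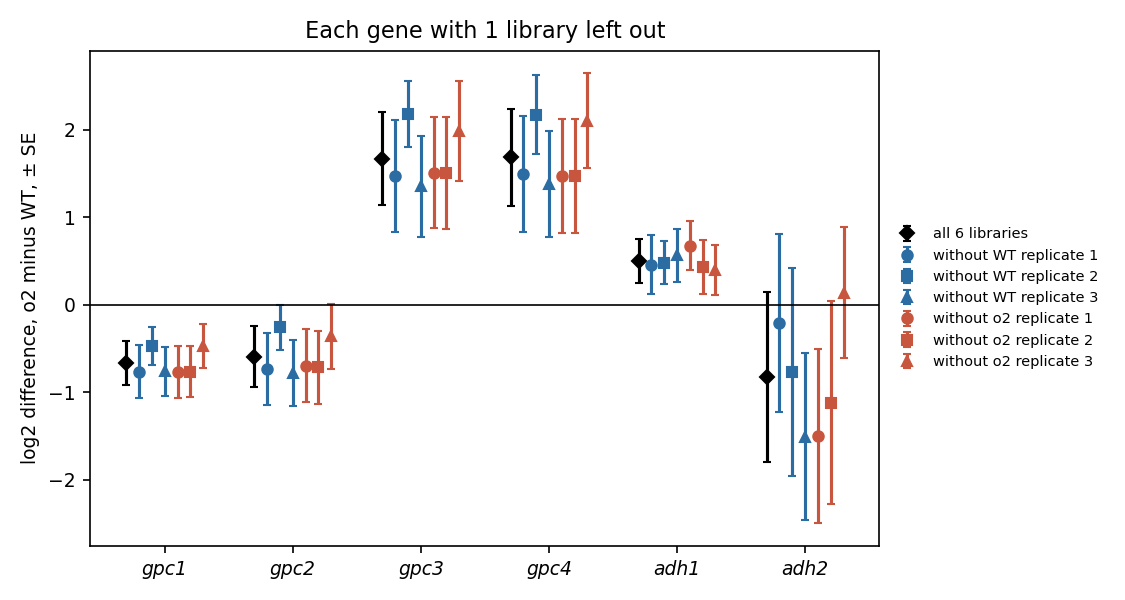
Log2 difference of each gpc and adh gene, o2 minus WT, with its SE in the limma fit, for all 6 libraries (black) and with 1 library left out (blue for a WT library, red for an o2 library). The direction was kept in each fit shown for all genes but adh2, whose difference turned to 0.14 without o2 replicate 3.

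The rest of the route from sucrose to ethanol was described, in part, with a list of gene symbols. It matched 24 further gene IDs, of which 21 passed the filter, and 4 of these fell in o2, 0 rose and 17 were not called. One of the 4, frk1, passed through its WT libraries alone, and with an RPKM of 1 or more asked of all 6 libraries 3 of 20 fell. On the scale of the summed RPKM 0 fell and 17 rose, as nearly all tested genes did there. Over all tested genes 2.07% fell and 1.49% rose. The median log2 difference of the 21 IDs was -0.18, and that of all tested genes was 0.05. None of the 4 that fell codes for a step from aldolase to ethanol. For those steps only ald1, eno1, eno2, pdc2 and pdc3 were tested beside the gpc and adh genes. The symbols for triose phosphate isomerase, phosphoglycerate kinase and pyruvate kinase, among others, matched no gene ID, so these steps were not examined.

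Of the 4, sus2 codes for a sucrose synthase, which splits sucrose, and frk1 and frk2 for fructokinases, which phosphorylate the fructose that is released. The fructokinase gene frk1 (GRMZM2G086845) went from 3.17, 2.04 and 4.22 RPKM in WT to 0.401, 0.336 and 0.205 RPKM in o2. Every o2 value lay far below the WT values, with a log2 difference of -2.94 ± 0.31 (SE, n = 3 each; limma adjusted p = 0.00714). It passed the filter on low values through its WT libraries alone, and the size of its difference depends on the pseudocount, at -1.62 with a pseudocount of 1 and -3.27 with 0.01, both called. The second fructokinase gene, frk2 (GRMZM2G051677), went from 8.79, 19.0 and 9.79 RPKM to 3.75, 2.58 and 1.23 RPKM, a log2 difference of -2.31 ± 0.45 (SE, n = 3 each; limma adjusted p = 0.0466). The log2 difference of sus2 (GRMZM2G318780) was -1.58 ± 0.30 (SE, n = 3 each; limma adjusted p = 0.0453), with 32.6 RPKM in its lowest WT library and 19.8 RPKM in its highest o2 library.

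The fourth was aldh2 (GRMZM2G125268, also rf2b), an aldehyde dehydrogenase gene. Aldehyde dehydrogenases oxidise acetaldehyde, the product of pyruvate decarboxylase, to acetate. Its level was 22.8, 22.9 and 25.1 RPKM in WT and 11.1, 10.7 and 9.66 RPKM in o2. This was the gene with the least spread among the 4, with a log2 difference of -1.16 ± 0.14 (SE, n = 3 each; limma adjusted p = 0.0106). With 1 library left out, frk1 was called in 5 of 6 fits (lost without o2 replicate 2, limma adjusted p = 0.0509), aldh2 in 3 (lost without WT replicate 1 or o2 replicate 2 or 3), sus2 in 1 (without WT replicate 1) and frk2 in 0. With RPKM divided by the summed RPKM of the library, aldh2, sus2 and frk2 turned positive, at 1.39, 0.98 and 0.20, below the median gene of 2.55, and frk1 was at -0.70. Another ID with the names aldh2 and rf2b, GRMZM2G125378, did not pass the filter. Its means were 0.907 ± 0.154 RPKM in WT and 0.811 ± 0.024 RPKM in o2 (SD, n = 3 each), and its groups overlapped.

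The other abundant genes of the list were not called on the deposited scale. The enolase gene eno1 had a log2 difference of 0.56 ± 0.66 and its duplicate eno2 of -0.18 ± 0.28 (SE, n = 3 each; limma adjusted p 0.716 and 0.790). The aldolase gene ald1 had 0.60 ± 0.48 (SE, n = 3 each; limma adjusted p = 0.556). Differences of 0.57 ± 0.19 and 0.48 ± 0.19 (SE, n = 3 each; limma adjusted p 0.168 and 0.248) were found for both IDs of phi1, GRMZM2G065083 and GRMZM6G477257, which meet the same gene of phosphohexose isomerase in the name table. For mdh2, a malate dehydrogenase gene, the difference was 0.66 ± 0.41 (SE, n = 3 each; limma adjusted p = 0.450), and it was called without WT replicate 2 (limma adjusted p = 0.0387). The sucrose synthase genes sh1 and sus1 had -0.41 ± 0.30 and -1.69 ± 0.48 (SE, n = 3 each; limma adjusted p 0.515 and 0.124). The difference of sh1 turned positive and was called under quantile normalization (1.69, limma adjusted p = 0.0336) and on the scale of the summed RPKM (2.15, limma adjusted p = 0.00598), there below the median gene.

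Pyruvate decarboxylase makes the acetaldehyde that alcohol dehydrogenase reduces. Its gene pdc2 (GRMZM2G038821) was at 19.9, 14.5 and 26.3 RPKM in WT and 24.7, 27.0 and 20.8 RPKM in o2. The gene pdc3 (GRMZM2G087186) was at 15.1, 20.8 and 17.5 RPKM in WT and 22.6, 14.4 and 13.7 RPKM in o2. Both overlapped between genotypes, with limma adjusted p-values of 0.585 and 0.874, and in every library both lay well below adh1.

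**Figure D4:**
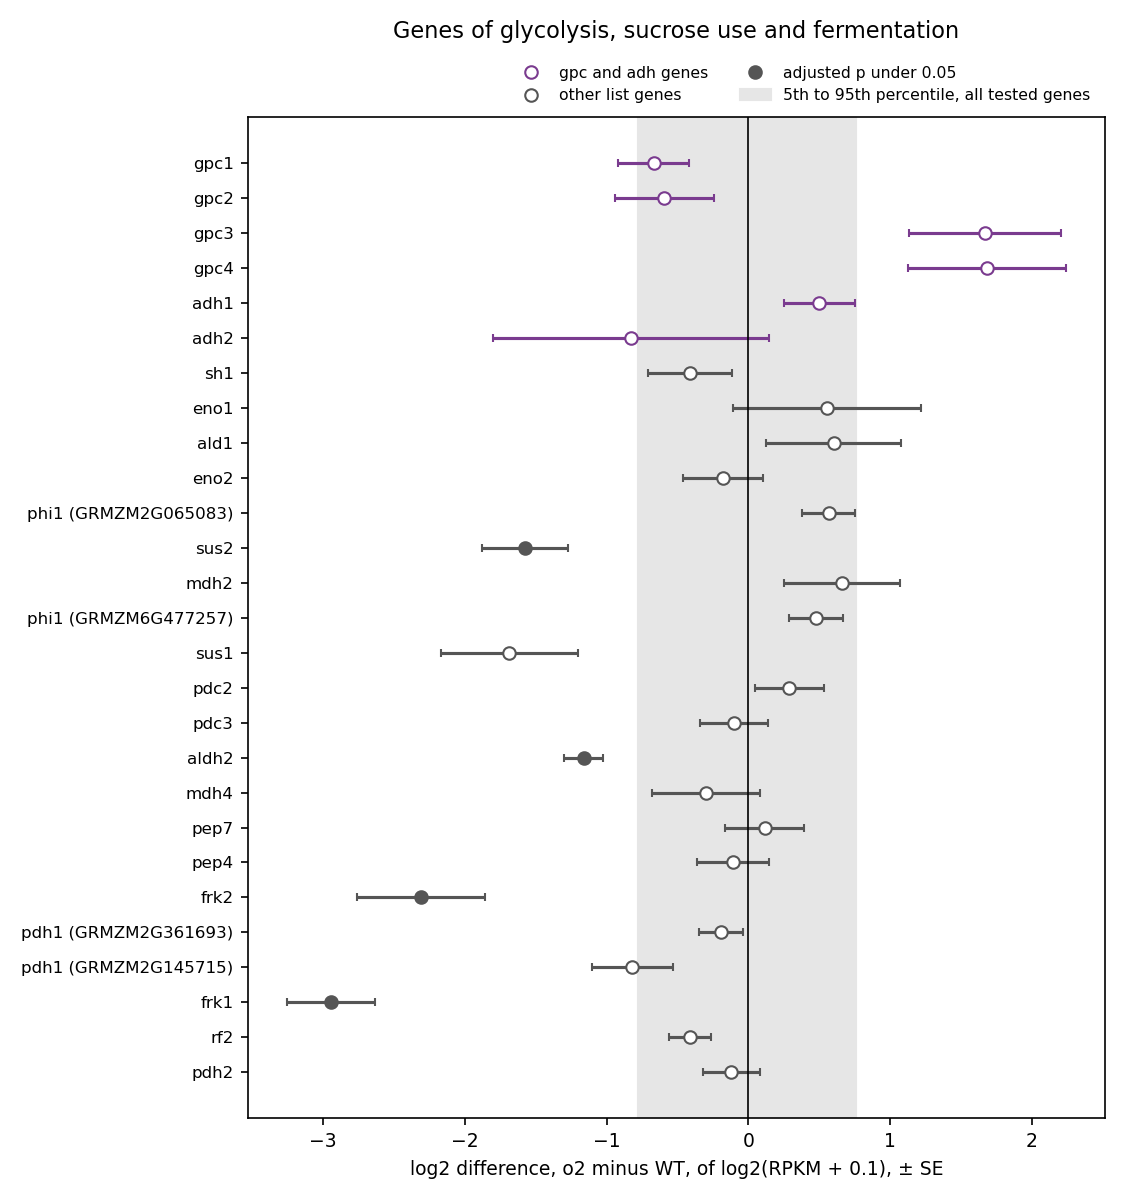
Log2 difference, o2 minus WT, of log2(RPKM + 0.1) with its SE for the gpc and adh genes and the other tested genes of the list, ordered by mean level below the first 6. Filled points had an adjusted p under 0.05, and the grey band runs from the 5th to the 95th percentile of all tested genes, from -0.78 to 0.76. Only gpc3, gpc4 and adh2 among the first 6 lie outside the band.

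Across the 6 RNA libraries, the named gene whose log2 level ran most closely with gpc3 was gpc4, with a Pearson r of 0.995 over 6 libraries of both genotypes. How reads that fit both genes were counted is not known, so their levels may not be independent. The next named genes for gpc3 were dedA and HMGe, with r of 0.990 and 0.988. Both had far smaller differences between genotypes, 0.41 and 0.39 on the log2 scale. For gpc4 they were gpc3, HMGe and ABI14, with r of 0.987 for each of the last pair.

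The nearest named genes of gpc1 were the transcription factor gene EREB85 and the genes cys2 and bZIP7, with r of 0.995, 0.991 and 0.988. Those of gpc2 were dba2, GF14-12, which codes for a 14-3-3 protein, and the superoxide dismutase gene Sod3.2, with r of 0.993, 0.993 and 0.987. For adh1 they were the ribosomal protein gene rpl5, an1, which codes for an enzyme of gibberellin synthesis, and TIFY21, with r of 0.991, 0.991 and 0.979. For adh2 they were mir3, the MADS-box gene zag2 (GRMZM2G160687) and the MADS-box gene m6, with r of 0.989, 0.972 and 0.946. Between 19 genes for adh2 and 180 for gpc3 reached an r of 0.95 among all tested genes, named or not, so likeness over 6 libraries sets few genes apart.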

How the data were processed

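The authors deposited RPKM per gene for 6 RNA libraries (3 WT, 3 o2) and counts of reads per library by mapping class, per the file headers. Per the submitters' processing notes, which give no roles, the tools were edgeR 3.2.4, TopHat2 2.0.9, MACS2 2.1.0.20140616, Trimmomatic, Bowtie2 2.1.0 and bedtools 2.17.0, with the build B73 RefGen_v3. The sources used here do not give the class of reads counted, the use of strand or the scale factor, so the split of reads between paralogs is uncertain. Genes with 1 RPKM or more in at least 3 libraries were fitted as log2(RPKM + 0.1) in R 4.3.3 with limma 3.58.1 (eBayes with trend, genotype as the only term). Adjusted p-values are Benjamini-Hochberg values over all 18687 tested genes. The step was run on simulated data with 200 changed genes and independent noise for each gene and library. Those data held no effect shared by the genes of a library, so they do not show how the fit handles such effects. RPKM is not a count, so no count test was run.

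The members, gene lists and tests were chosen with earlier results of these data known. Of 28580 IDs, 12658 were paired with a reference gene (Zm-B73-REFERENCE-NAM-5.0), which was used for names alone, and 1806 had a name. Of 27 list matches, 3 were removed because the symbol stands, or may stand, for another protein. Named genes are the 6 members, the called and the 12 most abundant list genes, and the 3 named genes of highest Pearson r with each member. ChIP peaks and sequences were not used here, since no genome of the build of the peak list was at hand. Alternatives were other pseudocounts (1 and 0.01), filters, scalings, eBayes without trend, a replicate block and left-out libraries.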

Additional observations from a re-analysis of the deposited data

How the results depend on the processing

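The number of called genes moved most. It was 666 of all tested genes, 1051 without a filter, 395 with an RPKM of 1 or more in all 6 libraries, 299 without replicate 3 of both genotypes, 18271 relative to the summed RPKM of the library and 98 to 777 with 1 library left out. Of the 6 gpc and adh genes, 0 were called, but 1 with quantile normalization (gpc3, adjusted p = 0.0322), 0 to 1 with 1 library left out and 6 relative to the summed RPKM. In the list, 4 were called, all lower, but 1 without replicate 3 of both genotypes, 3 with an RPKM of 1 or more in all 6 libraries, 17 relative to the summed RPKM, all higher, 5 with quantile normalization, 4 lower and 1 higher (sh1), and 0 to 3 with 1 library left out. Relative to the summed RPKM, the log2 differences were 1.89 (gpc1), 1.97 (gpc2), 4.24 (gpc3), 4.25 (gpc4), 3.07 (adh1) and 1.33 (adh2). They were 2.15 for sh1, 2.39 for eno2, 2.46 for pdc3, 1.39 for aldh2, 0.98 for sus2 and 0.20 for frk2, with the median gene at 2.55. Quantile normalization gave 3.70 (gpc3), 3.32 (gpc4), 1.30 (adh1) and, turned from negative and called, 1.69 (sh1), and the cause was not tested. With 1 library left out, adh2 ranged from -1.51 to 0.14, gpc1 from -0.77 to -0.48, gpc2 from -0.78 to -0.26, gpc4 from 1.38 to 2.18 and adh1 from 0.40 to 0.67. The difference in the gpc3 and gpc4 share was 10.2 percentage points, 8.98 to 11.8 with 1 library left out and 7.31 without gpc1 in the sum; for adh2 in the adh sum it was -0.395, and -0.681 to -0.0465. With 1 library left out, the log2 of the ratio of gpc3 to ald1 differed by 1.03 to 1.12 and of gpc3 to eno1 by 0.88 to 1.25.

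With the replicate number as a replicate block, 340 genes were called, 0 of the 6 and 1 of the list (frk1). Same-numbered libraries had correlations of -0.0176, 0.0606 and 0.320 of their deviations from the group means. The value for replicate 3 was the highest of all pairs. In contrast, o2 replicate 1 was most like WT replicate 2 (0.230), and o2 replicate 2 most like WT replicate 1 (0.168). With so few libraries these values cannot settle whether the numbers pair them. With the block, the SE of adh2 was 0.27 instead of 0.97 and that of gpc4 0.40 instead of 0.56. The SE of adh1 was 0.28 instead of 0.25. The pseudocounts of 1 and 0.01, equal medians and eBayes without trend kept the direction of all 6 genes and called 0 of them, though adh2 went from -0.83 to -0.37 with a pseudocount of 1 and to -1.05 with 0.01.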
